A study of Homo sapiens with 4 samples.

Results

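The proteasome is the protease complex that degrades proteins tagged with ubiquitin, and its genes were described here in MOLM13 cells, a human acute myeloid leukaemia line, that overexpressed BTG2. Members were taken by name, as the subunit families PSMA to PSMG with a number and the genes POMP and ADRM1. The rule took 54 of the 11597 genes in the authors' deposited table. Of these, 48 code for subunits, activators, an inhibitor or assembly factors. The other 6 only carry a member's name, namely 3 non-coding genes named as antisense, 1 pseudogene and the partner proteins PSMC3IP and PSME3IP1.

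The barrel-shaped core particle is a stack of rings of alpha and beta subunits, and its proteolytic sites lie inside on beta subunits. The regulatory particle caps the barrel, where ATPases unfold the substrate and other subunits bind and remove ubiquitin. In blood cells an immune form of the core, with exchanged catalytic subunits, helps to produce the peptides shown on MHC class I molecules. Transcription of proteasome genes is known to be raised by NFE2L1 when proteasome activity is short.

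The BTG2 cells carried a BTG2 cDNA in a lentiviral vector (genotype label BTG2 OE), and the others carried the empty vector (genotype label WT), with 2 libraries each. BTG2 is an antiproliferative adaptor of the cytoplasmic deadenylase complex, and the design text names mRNA stability as the question. Both groups expressed puromycin resistance and ZsGreen from the vector's EF1α promoter, were a single established line, and were collected 3 days after transduction, with no selection or sorting given in the labels. Only the authors' deposited table of the comparison was analysed, so values per library and their depth are unknown, and errors below are the authors' standard errors (SE). No label ties the replicates to separate cultures, so the p-values measure only the spread between these libraries, which may be technical.

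BTG2 itself stood at a log2 fold change of 5.01 (SE 0.09), BTG2 over empty vector, per the authors' deposited table, with the cDNA and the endogenous gene not separated. Of 12 myeloid leukaemia markers 10 were among the listed genes, with LYZ at a mean normalized count of 6277, SPI1 at 1848, FLT3 at 1291 and CD33 at 359 per the authors' deposited table. Of these 10 markers 3 were lower and 2 higher. Of 10 markers of other cells only KRT18, at 421, and PECAM1, at 65.7, were listed per the authors' deposited table. In bulk RNA, fewer cells of a type and less RNA per cell cannot be told apart.

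Most proteasome transcripts had slightly negative log2 fold changes with BTG2, and 7 of the 12 that fell code for the 17 subunits of the core particle. The core genes had a median mean normalized count of 1960, against 391 for the regulatory particle. Of the 12 that fell, 11 had a mean count of at least 1000. Whether the falls went with the core or with mean count was not tested. Of the 54 members, 12 fell and 1 rose at the authors' adjusted p under 0.05, or 22.2% and 1.85%. Over all listed genes 4.47% were lower and 3.64% higher. The median log2 fold change of the members was -0.09, against 0.00 over all genes, and 36 members (66.7%) were below 0. With all values recentred on the median abundant gene, which stood at -0.03, 31 members (57.4%) were below 0. Of all listed genes 49.9% were below 0, or 45.5% after recentring. Among all genes at a mean normalized count of at least 1000 these shares were 66% and 57.7%, against 100% and 90.9% of the 22 members at that count. Among all genes below that count they were 48.3% and 44.2%, against 43.8% and 34.4% of the 32 members below it. No called member changed by as much as 0.5 on the log2 scale, and the largest fall was 24.4%. The 41 others did not pass, from PSMD12P1 at -0.79 to PSME4 at 0.67. The count of 12 became 3 with a minimum absolute log2 fold change of 0.3, and 7 with a null fitted to all scores, under which PSMB5, PSMB8, PSMB10, PSMD8, PSMG2 and PSMC4 no longer passed. It was 7 without the 8 members on chromosome 14, and PSMB8, PSMD8 and PSMG2 also failed after recentring.

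**Figure D1:**
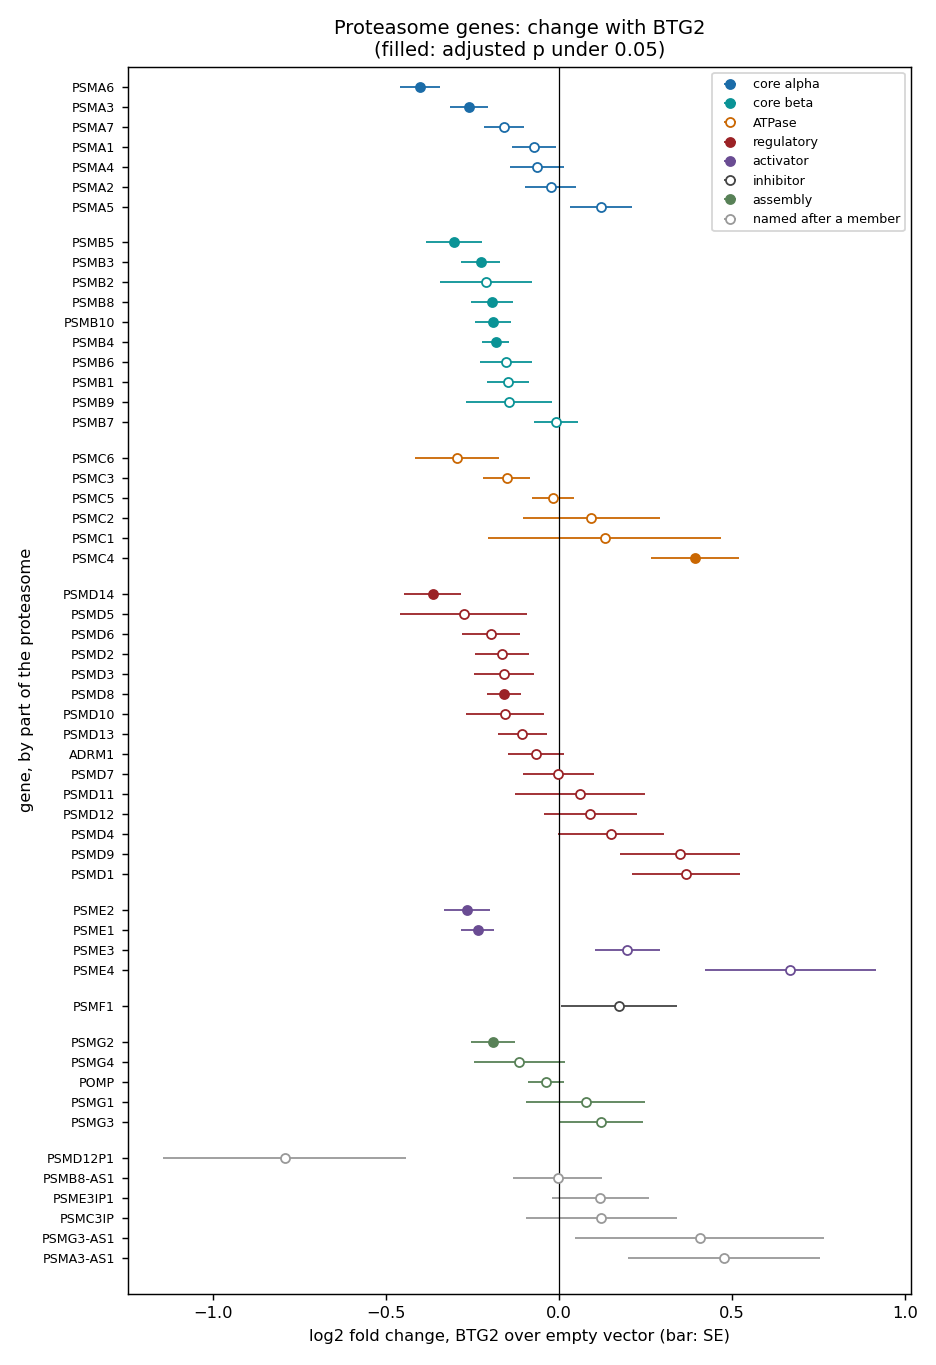
Log2 fold change, BTG2 over empty vector, of the 54 proteasome members by part of the complex, with bars for the authors' SE and filled points for an adjusted p under 0.05. All 10 core beta genes lie below 0 (9 after recentring, which turns PSMB7), while the ATPases lie on both sides and PSMC4, at 0.39, is the only filled point above 0. Of all genes at a mean count of at least 1000, 66% lie below 0 (57.7% after recentring).

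The alpha subunits form the outer rings of the core and its gate. Of the 7 alpha genes 2 fell (28.6%), 6 were below 0 (5 after recentring) and the median was -0.07. Their median mean count was 1811. Among all genes at a mean count of at least 1000, 21.2% were lower and 66% were below 0 (57.7% after recentring). PSMA6 (chromosome 14, 35278633 to 35317493, plus strand, GENCODE release 29 on hg38) fell most of all members, with a log2 fold change of -0.40 (SE 0.06, adjusted p = 3.69e-10), a fall by 24.4%, per the authors' deposited table. PSMA3 fell by 0.26 (SE 0.05, adjusted p = 6.02e-05), or by 16.6%, per the authors' deposited table. The other alpha genes did not pass the test. PSMA7 came nearest at -0.16 (SE 0.06, adjusted p = 0.0677), followed by PSMA1 at -0.07, PSMA4 at -0.06 and PSMA2 at -0.02, per the authors' deposited table. PSMA5 was the alpha gene above 0, at 0.12 (95% interval -0.05 to 0.29), per the authors' deposited table.

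The beta subunits form the inner rings, and PSMB5, PSMB6 and PSMB7 carry the proteolytic sites of the constitutive core. All 10 beta genes were below 0, or 9 after recentring, which turned PSMB7. Their median was -0.19, and 5 of them fell (50%), at a median mean count of 2156. Among all genes at a mean count of at least 1000, 21.2% were lower and 66% were below 0, or 57.7% after recentring. PSMB5, the chymotrypsin-like subunit and the main target of bortezomib, fell by 0.31 (SE 0.08, adjusted p = 0.00364), or by 19.1%, per the authors' deposited table. The structural subunits PSMB3 and PSMB4 fell by 0.23 (SE 0.06, adjusted p = 0.00115) and 0.18 (SE 0.04, adjusted p = 0.000107) per the authors' deposited table. PSMB4 had the highest mean normalized count of the members, 4893.

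The other constitutive beta genes did not pass. The caspase-like subunit PSMB6 was at -0.15 (SE 0.08, 95% interval -0.30 to -0.01), and the trypsin-like subunit PSMB7 at -0.01 (SE 0.06, 95% interval -0.13 to 0.11), per the authors' deposited table. PSMB2 stood at -0.21 (SE 0.13) and PSMB1 at -0.15 (SE 0.06), at mean counts of 386 and 4590, per the authors' deposited table. Among the 3 constitutive catalytic genes, then, PSMB5 passed the test, and the difference between it and the others was not tested.

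In the immune core PSMB8 takes the place of PSMB5, PSMB9 that of PSMB6 and PSMB10 that of PSMB7. PSMB8 fell by 0.19 (SE 0.06, adjusted p = 0.0204) and PSMB10 by 0.19 (SE 0.05, adjusted p = 0.00568) per the authors' deposited table. PSMB9 was close to them at -0.15 but did not pass (SE 0.12, 95% interval -0.39 to 0.10) per the authors' deposited table, at a mean count of 337 against 2485 for PSMB8. PSMB8 (chromosome 6, 32840717 to 32844703, minus strand) and PSMB9 (32844136 to 32859585, plus strand) share 568 bases on opposite strands in GENCODE release 29. The non-coding PSMB8-AS1 overlaps both and was at 0.00 (SE 0.13) per the authors' deposited table. Use of the strand in counting was not given in the sources used here, so reads of these genes may not be separated.

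The ATPases form the ring that unfolds substrates and threads them into the core. Of the 6 ATPase genes 1 rose and 0 fell, 3 were below 0 (2 after recentring) and the median was 0.04; at an unadjusted p under 0.05 there were 3, of which PSMC3 and PSMC6 were below 0. PSMC4 (chromosome 19, 39971005 to 39981441, plus strand) was the 1 member that rose, by 0.39 on the log2 scale (SE 0.13, adjusted p = 0.0307), or 1.31-fold, with a mean normalized count of 391 per the authors' deposited table. PSMC6 was at -0.30 (SE 0.12, adjusted p = 0.125) and PSMC3 at -0.15 (SE 0.07, adjusted p = 0.186) per the authors' deposited table. PSMC5, PSMC2 and PSMC1 were at -0.02 (SE 0.06), 0.09 (SE 0.20) and 0.13 (SE 0.34) per the authors' deposited table. The ATPase genes thus lay on both sides of 0.

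The lid of the regulatory particle removes ubiquitin chains. Of the 8 lid genes among the members 2 fell (25%), 6 were below 0 (5 after recentring) and the median was -0.13. Their median mean count was 858. Of all genes at a mean count of at least 1000, 21.2% were lower, and of those below it 2.76%. PSMD14, the deubiquitinase of the lid, fell by 0.37 (SE 0.08, adjusted p = 0.000278), or by 22.4%, per the authors' deposited table. Its partner PSMD7, which pairs with it in the lid, stood at 0.00 (SE 0.10, 95% interval -0.21 to 0.20) per the authors' deposited table. PSMD8, a structural lid subunit, fell by 0.16 (SE 0.05, adjusted p = 0.0193) per the authors' deposited table. The scaffold genes PSMD6 (-0.20), PSMD3 (-0.16), PSMD13 (-0.11), PSMD11 (0.06) and PSMD12 (0.09) did not pass per the authors' deposited table.

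None of the 4 non-ATPase base genes passed the authors' test, with 2 of them at an unadjusted p under 0.05. The scaffold PSMD2, which docks ubiquitin-like shuttle proteins, was at -0.17 (SE 0.08), and the scaffold PSMD1 at 0.37 (SE 0.16, adjusted p = 0.15), per the authors' deposited table. The ubiquitin receptors PSMD4 and ADRM1 were at 0.15 (SE 0.15) and -0.07 (SE 0.08) per the authors' deposited table. PSMD5, PSMD9 and PSMD10 are chaperones that help assemble the base and are not part of the finished complex. They were at -0.28 (SE 0.18), 0.35 (SE 0.17) and -0.16 (SE 0.11) per the authors' deposited table, and did not pass either.

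Activators bind the ends of the core in place of the regulatory particle. PSME1 and PSME2 together form the interferon-inducible ring that is linked to antigen processing, and both fell. PSME1 fell by 0.24 (SE 0.05, adjusted p = 4.22e-05), or by 15.1%, and PSME2 by 0.27 (SE 0.07, adjusted p = 0.00133), or by 16.9%, per the authors' deposited table. The nuclear activator PSME3 was at 0.20 (SE 0.09, adjusted p = 0.239), and PSME4, a large activator, at 0.67 (SE 0.25, adjusted p = 0.0752) with a mean count of 95.1, per the authors' deposited table. PSME1 and PSME2, at mean counts of 3088 and 2100, were below 0. PSME3 and PSME4, at 580 and 95.1, were above it but did not pass. Function and mean count cannot be told apart in these 4 genes, and the difference was not tested.

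PSME1 and PSME2 lie on chromosome 14 in opposite orientation, 4394 bases apart (24136158 to 24138967, plus strand, and 24143362 to 24147570, minus strand, GENCODE release 29). The 250 bases before each RefSeq start (GRCh38.p14) are shown because both partners fell and both hold the core of the antioxidant response element, TGACNNNGC, the element bound by NFE2L1 and NFE2L2 with small MAF proteins. Capitals mark that motif.
PSME1, chr14:24135944-24136193, plus strand: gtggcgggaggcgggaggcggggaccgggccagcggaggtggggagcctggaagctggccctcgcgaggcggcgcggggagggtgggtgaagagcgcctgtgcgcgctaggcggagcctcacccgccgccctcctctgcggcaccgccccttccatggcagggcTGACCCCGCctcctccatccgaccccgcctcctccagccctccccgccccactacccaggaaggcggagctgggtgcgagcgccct
PSME2, chr14:24146611-24146860, minus strand: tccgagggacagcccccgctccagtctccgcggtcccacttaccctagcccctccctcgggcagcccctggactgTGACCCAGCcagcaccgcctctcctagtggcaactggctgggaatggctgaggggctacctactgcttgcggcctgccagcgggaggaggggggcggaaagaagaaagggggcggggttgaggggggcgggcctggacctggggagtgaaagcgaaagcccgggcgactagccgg
Both windows are rich in G and C, at 76.8% in PSME1 and 69.6% in PSME2. The motif starts 86 bases before the PSME1 start and 175 before the PSME2 start.

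The inhibitor gene PSMF1, whose protein binds the core, was at 0.17 (SE 0.17) per the authors' deposited table and did not pass. Of the 5 factors that assemble the core 1 fell and 3 were below 0. PSMG2, which acts with PSMG1 in building the alpha ring, fell by 0.19 (SE 0.06, adjusted p = 0.0368) per the authors' deposited table. PSMG1 was at 0.08 (SE 0.17) at a much lower mean count, 231 against 1421 for PSMG2, per the authors' deposited table. PSMG3 (0.12), PSMG4 (-0.12) and POMP, which guides the beta subunits into place (-0.04, SE 0.05), did not pass per the authors' deposited table.

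None of the 6 genes that carry a member's name alone passed the authors' test, with 1 of them, the pseudogene PSMD12P1, at an unadjusted p under 0.05. PSMD12P1 had a log2 fold change of -0.79 (SE 0.35) at a mean count of 40.6 per the authors' deposited table. Reads of PSMD12 may not be told from those of the pseudogene. PSMA3-AS1 was at 0.48 (SE 0.28), while PSMA3 fell, per the authors' deposited table. These genes overlap on opposite strands in GENCODE release 29. PSMG3-AS1 was at 0.41 (SE 0.36), PSMC3IP, a recombination factor, at 0.12 (SE 0.22) and PSME3IP1, a partner of PSME3, at 0.12 (SE 0.14) per the authors' deposited table. In all, 22 members overlap another listed gene in GENCODE release 29, and 21 of them do so on the opposite strand.

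Among members, log2 fold changes were lower at high mean counts. All 22 members with a mean normalized count of at least 1000 lay below 0, or 20 after recentring, with a median log2 fold change of -0.16 and a range from -0.40 to -0.01. Of them 11 fell (50%) and 0 rose, with 15 at an unadjusted p under 0.05. PSMB5, which fell, lay just above the limit at 1000.7, and PSMA2, which did not pass, just below it at 990. Among all 1072 genes at that mean count, 21.2% were lower and 11.7% higher, 66% were below 0, or 57.7% after recentring, and the median was -0.06. Recentring took out a shift of -0.03, and not this median of -0.06. Below that count 32 members had a median of 0.08, with 1 lower and 1 higher (3.12% each), near the 2.76% lower and 2.82% higher among all 10525 genes below it. Across 47 coding members with an annotated transcript, the Spearman rho of log2 fold change with mean count was -0.54, against -0.10 over 10472 coding genes. PSMB4, which fell and had the highest mean count of the members, had no transcript lengths and is not among the 47. This is a description across genes of the same 4 libraries, and the fold change and the mean come from the same counts.

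**Figure D2:**
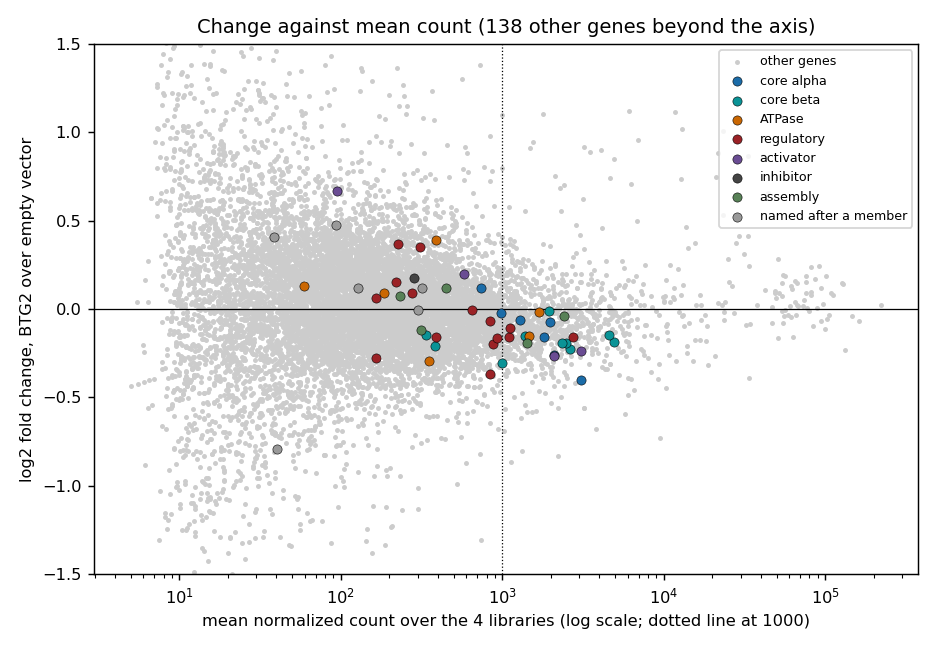
Log2 fold change, BTG2 over empty vector, against the mean normalized count over the 4 libraries on a log axis, for the members in colour and all other genes in grey. To the right of the dotted line at 1000 all 22 members lie below 0 (20 after recentring), between -0.40 and -0.01.

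The size of change that could be called differed between members. With the smallest absolute score called, 2.88, a log2 change from 0.11 for PSMB4 to 1.04 for PSMG3-AS1 was needed, with a median of 0.25. For 10 members a change of 0.5 could not have been called, among them PSMC1 (0.97), PSME4 (0.71), PSMC2 (0.57), PSMD11 (0.54), PSMD5 (0.53) and PSMD9 (0.50). A missing call for these genes does not show that they stayed level.

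Annotated proteasome transcripts were short. In the longest complete coding transcript of each gene, 47 subunit and factor genes, without PSMB4, had a median 3′ UTR of 317 bases. The median over 10472 listed coding genes was 961.5 bases. Median coding lengths were 822 and 1392 bases. In 34 of the 47 the 3′ UTR, and in 42 the coding length, was below the median of all coding genes. The 24 members with 3′ UTRs of 41 to 317 bases had a median log2 fold change of -0.16, with 9 lower and 1 higher, and a median mean count of 1444. The 23 with 3′ UTRs of 320 to 3475 bases had a median of 0.00, with 2 lower and 0 higher, and a median mean count of 388. Spearman's rho of log2 fold change with 3′ UTR length was 0.42 over the members and 0.09 over all coding genes. Mean count moved with 3′ UTR length, and the part of each in the result was not tested. All these lengths are those of the annotated transcript chosen for each gene. The deposited values are per gene, so the transcripts in use in these cells, and their 3′ UTRs, are unknown and may differ. By this annotation PSMA6 and PSME2 had the shortest 3′ UTRs, 41 and 44 bases, and both fell. PSMC5 (50 bases, -0.02) and PSMB9 (53 bases, -0.15), next in annotated length, did not pass, per the authors' deposited table.

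**Figure D3:**
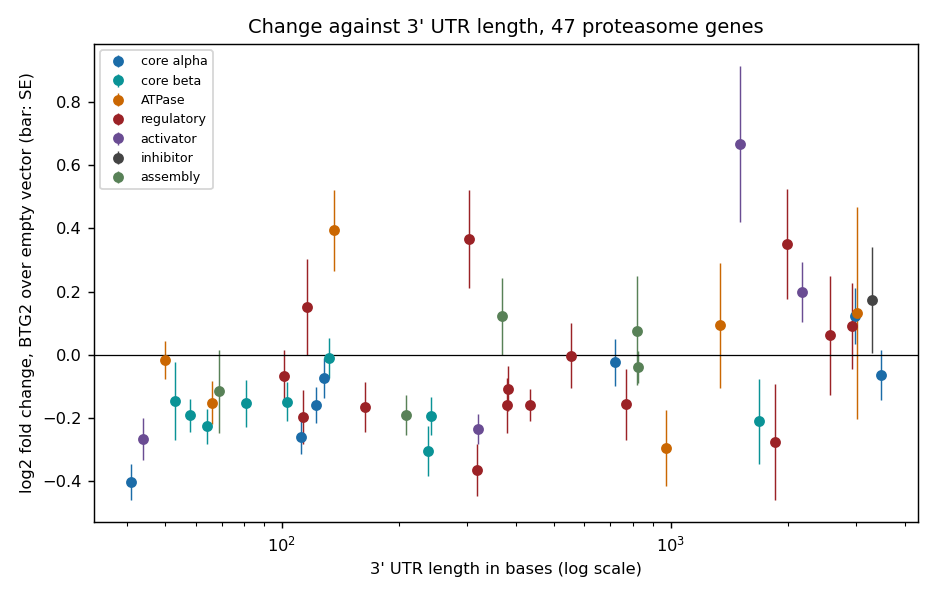
Log2 fold change, BTG2 over empty vector, with the authors' SE as bars, against annotated 3′ UTR length in bases on a log axis for 47 proteasome genes. PSMB4, which fell, had no annotated length and is not shown. Of the 24 genes at 317 bases or less 21 lie below 0, and of the 23 longer ones 12 do (19 and 10 after recentring).

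RefSeq promoter windows of 300 bases, 250 before and 50 after the start, were matched by symbol for 42 of the 48 subunit and factor genes. TGACNNNGC, on either strand and at any listed start of a gene, was found in 16 of the 42 (38.1%, exact 95% interval 23.6 to 54.4%), against 16.1% of 27305 genes with such a window and 19.7% of 9026 listed here. It was found in 5 of 13 called members and in 11 of 29 others, or 38.5% and 37.9%. The looser TGANNNNGC, which takes in every TGACNNNGC, was in 27 of the 42 (64.3%, exact 95% interval 48.0 to 78.4%), against 47.1% of all genes and 51.5% of those listed. It was found in 12 of 13 called members and in 15 of 29 others, or 92.3% and 51.7%, so the split between called and other members depended on the motif, and no test of it was made. CCAAT, the site read by the NFY factors, was in 20 of 42 (47.6%, exact 95% interval 32.0 to 63.6%), against 39.7% of all genes and 43.7% of those listed, both within the interval. It was in 5 of the 13 called members and 15 of the 29 others. The 30-base windows around TGACNNNGC in the called members other than PSME1 and PSME2 are shown for comparison with those above. Each is written on the strand of its gene, and capitals mark the motif, which in PSMC4 lies on the other strand.
PSMB3, chr17:38752627-38752656, plus strand: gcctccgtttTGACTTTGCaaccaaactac
PSMG2, chr18:12658689-12658718, plus strand: cagtttcccgTGACCCCGCggccgctctgc
PSMC4, chr19:39971182-39971211, plus strand: acagaggccgGCTTGGTCActatggaggag
The match starts 104 bases before the start in PSMB3, 39 before it in PSMG2 and 27 after it in PSMC4. PSMB3 and PSMG2 fell and PSMC4 rose. A match of letters is no evidence of binding.

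Other genes of the ubiquitin pathway were called in both directions. A set of 8 lists held 124 measured genes of 127, of which 6 were lower (4.84%) and 6 higher (4.84%), close to the 4.47% and 3.64% of all listed genes. Of the 6 ubiquitin and E1 genes 2 fell and 1 rose. The polyubiquitin gene UBB fell by 0.29 (SE 0.03, adjusted p = 1.4e-20) per the authors' deposited table. The ubiquitin-activating enzyme UBA1 was at -0.15 (SE 0.06, adjusted p = 0.102) per the authors' deposited table.

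Of 33 conjugating enzymes of the E2 family 2 fell and 1 rose, with a median of -0.05. CDC34, which serves cullin ligases, fell by 0.35 (SE 0.10, adjusted p = 0.0101), and UBE2C, the enzyme of the anaphase-promoting complex, by 0.22 (SE 0.08, adjusted p = 0.0453), per the authors' deposited table. UBE2G2, which acts in degradation from the endoplasmic reticulum, rose by 0.59 (SE 0.15, adjusted p = 0.0016) per the authors' deposited table. Of 18 cullin and NEDD8 genes 2 rose and 1 fell. The adaptor ELOB (0.49, SE 0.10) and the scaffold CUL3 (0.39, SE 0.12) rose, and NAE1 (-0.38, SE 0.09), a subunit of the NEDD8-activating enzyme, fell, per the authors' deposited table.

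Proteasome-associated proteins, 20 in all, had a median of -0.09 and 1 call, the rise of MIDN (0.34, SE 0.11, adjusted p = 0.0342), whose protein brings nuclear proteins to the proteasome, per the authors' deposited table. The small lid subunit SEM1, whose name the rule does not take, was at -0.10 (SE 0.06) per the authors' deposited table. Of 12 regulators of proteasome genes only MAFG, a small MAF protein, passed, at 0.41 (SE 0.14, adjusted p = 0.0345), per the authors' deposited table. NFE2L1 was at -0.12 (SE 0.15) and NFE2L2 at -0.03 (SE 0.09) per the authors' deposited table, and neither passed.

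None of 10 genes of the COP9 signalosome, a complex built like the lid, and none of 17 genes of the VCP segregase and its cofactors passed the authors' test. At an unadjusted p under 0.05 there were 3 and 2, among them COPS6 (-0.19, SE 0.07), COPS9 (0.18, SE 0.07), VCP itself (0.24, SE 0.08, adjusted p = 0.0546) and FAF1 (0.34, SE 0.17), per the authors' deposited table. The medians were -0.01 and 0.02. Of 8 genes of antigen processing near or upstream of the immune core, 7 were below 0 and the trimming enzyme ERAP2 fell, by 0.64 (SE 0.19, adjusted p = 0.0135), per the authors' deposited table. IRF1 stood at -0.49 (SE 0.18, adjusted p = 0.083), and TAP1, which overlaps PSMB9, at -0.08 (SE 0.17), per the authors' deposited table.

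**Figure D4:**
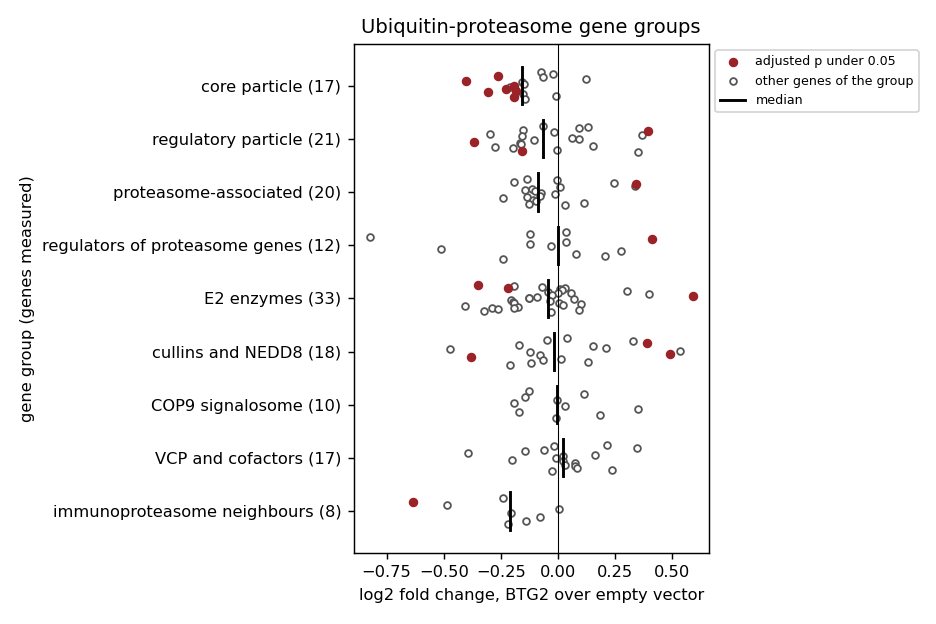
Log2 fold change, BTG2 over empty vector, of each measured gene in 9 groups of the ubiquitin-proteasome pathway, with filled points for an adjusted p under 0.05 and a black line for each group's median. The core particle has 7 filled points below 0 and a median of -0.16, and the COP9 signalosome has none and a median of -0.01. Their median mean counts are 1960 and 624 and their median SE 0.06 and 0.10, so smaller changes could be called in the core. The difference between the groups was not tested. The ubiquitin and E1 genes are not shown.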

How the data were processed

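Poly(A) RNA of MOLM13 cells was compared between 2 libraries with BTG2 and 2 with the empty vector, assigned from the sample titles. The series title speaks of long reads, whereas the labels' protocols describe a directional short-fragment kit, and no source used here says which of them made the table. The aligner minimap2 and the build hg38 are named, per the submitters' processing notes, with no version or role. The file is a table of the authors' comparison. The authors' mean is a signal that is never negative, a normalized count averaged over all libraries. Fold changes and SE are log2 values deposited by the authors. The deposited score equals log2 fold change over SE within 2.72e-07. Each deposited p-value was adjusted by the authors over the 11597 listed genes, which a Benjamini-Hochberg adjustment matched within 1.48e-06. The program, normalization and filter were not given in the sources used here.

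The planned rule for such a table was used: a member was called at the authors' adjusted p under 0.05 across all genes, with no test added. Members, lists and the count limit of 1000 were chosen with earlier results of these data known. Every member may be named. Full statistics were due for called members and for the highest and lowest of each part with a mean count of at least the median, 151, and up to 4 genes of largest absolute score were named per other list. Some genes that this rule takes are not reported here. Intervals at the 95% level are log2 fold change with normal limits from the authors' SE. Positions and transcripts came from GENCODE release 29 on GRCh38, which is hg38, and matched 98.3% of genes by identifier. Promoters came from RefSeq (GRCh38.p14). Calling was tried on simulated data with noise drawn from the authors' SE, which could not test whether those SE are right. Python 3.11.15, numpy 2.4.6, pandas 2.3.3, scipy 1.17.1 and matplotlib 3.10.9 were used. PSMA8 and PSMB11, annotated coding genes of the same families, were not among the listed genes.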

Additional observations from a re-analysis of the deposited data

How the results depend on the processing

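The count of members that fell was 12. It was 3 with a minimum absolute log2 fold change of 0.3 (PSMA6, PSMB5 and PSMD14), where 3.01% of all genes were lower, and 7 with an empirical null fitted to all scores, which also lowered the share of all genes called lower to 2.26%. It was 7 without the members on chromosome 14, an alternative chosen after seeing the data. At the adjusted p limits of 0.01 and 0.1 it was 9 and 13, where 2.94% and 5.75% of the genes tested were lower. With adjustment over abundant genes alone, those at or above the median mean count, it was 13, where 8.98% were lower. Recentred on the median abundant gene, whose log2 fold change was -0.03, it was 9, where 3.73% were lower. The 1 member that rose, PSMC4, was not called at a limit of 0.01, with the empirical null, or at a mean count of at least 1000 (0 members in each), and at 0.1 PSME4 joined it (2 members). Recentring turned PSMB7, which was not called, to 0.017, and PSMB8, PSMD8 and PSMG2 no longer passed. The members' median, -0.09, ranged from -0.13 to -0.06 over the alternatives that were medians. Their mean weighted by inverse variance was -0.14. With the looser motif TGANNNNGC the share of promoters was 64.3%, against 47.1% of all genes and 51.5% of listed genes, and it was 92.3% in called and 51.7% in other members, against 38.5% and 37.9% with TGACNNNGC. Replicates could not be left out in turn, and edgeR and DESeq2 were not run, because values per library were not analysed here. No paired analysis was possible because the table holds no column per library. Depth limits the genes of low count, down to 59.1 for PSMC1 among the subunits.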

Other observations

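Of the 12 members that fell 5 lie on chromosome 14, namely PSMA6, PSMA3, PSMB5, PSME1 and PSME2. Chromosome 14 holds 8 members, and the other 3, PSMC6 (-0.30), PSMC1 (0.13) and PSMA3-AS1 (0.48), did not pass per the authors' deposited table. The 5 that fell are the 5 members on that chromosome with a mean count of at least 1000, with a median log2 fold change of -0.27. Of these PSMB5 lies just above that limit, at 1000.7. Of the 28 other chromosome 14 genes at that mean count 7 were lower (25%) and 2 higher, with a median of -0.08. Off chromosome 14, 7 of 46 members (15.2%) fell and 1 rose. The chromosome was looked at after the values were seen, and no test was made.

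Among partners that act as pairs in the complex, PSME1 and PSME2 were within 0.03 of each other, at -0.24 and -0.27 per the authors' deposited table. PSMD14 and PSMD7 were at -0.37 (SE 0.08) and 0.00 (SE 0.10), and PSMG2 and PSMG1 at -0.19 (SE 0.06) and 0.08 (SE 0.17), per the authors' deposited table. Differences within pairs were not tested.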
